A study of Homo sapiens with 5 samples.

Results

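The subject is the set of chromatin sites pulled down with an LC3 antibody in A549 cells, split by whether DNA of the same place was also enriched in extracellular vesicles (evDNA). An LC3 peak was called overlapping when it shared at least 1 bp with a peak of the EBSS or the control evDNA list. Of 7801 LC3 peaks, 345 overlapped (4.42%, exact 95% interval 3.98 to 4.90%) and 7456 did not. The 4 lists of the series held 63391 peaks in all. Promoter peaks are those that the authors' annotation puts no more than 1 kb from a TSS, the start of a transcript; they numbered 96 of the 345, and the other 249 are called non-promoter peaks. The members were chosen by the positions of peaks called in these same libraries, so the overlap and all that follows from it is given as a description, with no test.

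A549 is a line of human lung adenocarcinoma cells. LC3 and FOXM1 chromatin came from untreated cells grown with 10% serum and fixed for 10 minutes in 1% formaldehyde. Vesicle DNA was sequenced with no antibody, from cells kept for 3 days in EBSS, a starvation medium of salts and glucose, and from untreated control cells, both with the serum-free growth conditions that the labels give for vesicle work. Each group was 1 library of 1 cell line, so no difference between EBSS and control vesicles could be set against replicate error, and all intervals cover counting error only. The input library was not analysed here.

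LC3 proteins are small ubiquitin-like proteins that become joined to a lipid of the growing autophagosome membrane, where receptor proteins bind them to bring in cargo. A pool of LC3 is also found in the nucleus, where it can bind lamin B1 of the nuclear lamina. Vesicles released by cells can carry fragments of genomic DNA, and a peak in such DNA marks a place with more fragments than its surroundings. An LC3 peak, in turn, marks chromatin recovered with the LC3 antibody, which need not touch DNA itself.

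RefSeq gives a window from 250 bases before to 50 bases after the start of 15842 protein-coding genes used here. An overlapping LC3 peak and an evDNA peak both lay at least in part over 9 of these windows. Those of MFAP3 and FAM114A2 lay on opposite strands under the same LC3 peak, so the 9 windows, here and below, are not all separate places. For 4 of them the 250 bases before the start are printed. They are SPX (chr12:21527702-21527951, plus strand), which encodes the peptide hormone spexin, RNF180 (chr5:64165593-64165842, plus strand), which encodes a ubiquitin ligase, PGK1 (chrX:78103998-78104247, plus strand), which encodes a glycolytic kinase, and MFAP3 (chr5:154038717-154038966, plus strand), which encodes a microfibril-associated protein. The sequences are those of RefSeq on GRCh38.p14, 5′ to 3′, and capitals mark matches on either strand to the searched motifs. At none of the 4 did both peaks cover all the printed bases, and some marked motifs lie outside a peak. The evDNA peak of RNF180 starts at 64165839, near the end of its printed bases. The LC3 peaks of SPX and PGK1 end at 21527761 and 78104112, inside theirs.
SPX: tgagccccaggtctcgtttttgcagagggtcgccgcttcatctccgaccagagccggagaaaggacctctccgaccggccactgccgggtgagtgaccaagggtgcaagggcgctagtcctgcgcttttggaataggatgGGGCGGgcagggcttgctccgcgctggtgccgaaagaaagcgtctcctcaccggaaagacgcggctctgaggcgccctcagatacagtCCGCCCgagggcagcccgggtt
RNF180: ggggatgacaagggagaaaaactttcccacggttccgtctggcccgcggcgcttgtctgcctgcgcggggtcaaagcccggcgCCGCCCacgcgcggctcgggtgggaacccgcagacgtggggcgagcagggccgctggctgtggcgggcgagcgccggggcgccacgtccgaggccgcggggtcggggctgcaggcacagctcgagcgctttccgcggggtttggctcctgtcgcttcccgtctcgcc
PGK1: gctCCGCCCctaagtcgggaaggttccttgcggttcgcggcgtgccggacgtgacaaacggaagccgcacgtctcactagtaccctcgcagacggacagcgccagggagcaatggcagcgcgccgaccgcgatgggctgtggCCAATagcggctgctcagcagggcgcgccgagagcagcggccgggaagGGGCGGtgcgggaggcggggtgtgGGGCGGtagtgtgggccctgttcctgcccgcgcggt
MFAP3: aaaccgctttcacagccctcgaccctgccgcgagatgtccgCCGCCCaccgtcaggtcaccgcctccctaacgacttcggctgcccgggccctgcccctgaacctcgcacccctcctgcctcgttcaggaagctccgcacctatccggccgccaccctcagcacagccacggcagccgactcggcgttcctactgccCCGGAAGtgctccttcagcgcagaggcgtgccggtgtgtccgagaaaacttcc
The 7 motifs searched were the GC box GGGCGG, the CCAAT box CCAAT, the TATA motif TATAAA, the forkhead motif TGTTTAC, the E-box CACGTG, the ETS motif CCGGAAG and the cyclic AMP response element TGACGTCA, with no overlaps among the marked matches. The printed bases of PGK1 held 3 GC boxes and 1 CCAAT box, those of SPX 2 GC boxes, those of RNF180 1 GC box, and those of MFAP3 1 GC box and 1 ETS motif. A GC box thus stood in each of the 4 printed, but in only 5 of the 9 windows (55.6%), so the 4 do not stand for the 9 in this. All 4 were rich in G and C, at 64.8% for SPX, 74.0% for RNF180, 71.2% for PGK1 and 67.6% for MFAP3.

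Over all the windows, those under LC3 peaks had nearly the same base composition whether or not evDNA overlapped. The median G and C content was 67.8% in 16 windows under an overlapping LC3 peak and 67.7% in 299 windows under another LC3 peak. It was 60.0% in 199 windows with evDNA and no LC3 peak, and 62.7% in all 15842 protein-coding windows. A GC box stood in 12 of the 16 windows (75%, 47.6 to 92.7%), in 69.2% of those under other LC3 peaks, in 44.7% of those with evDNA alone, and in 58.5% of all windows. The CCAAT box stood in 31.2%, 29.4%, 31.2% and 36.4% of the same 4 groups, and the ETS motif in 25%, 20.4%, 13.1% and 14.2%. Of the 16 windows, 0 held the forkhead motif, a share whose exact interval reaches 20.6%, and 2.61% of all windows held it. The TATA motif stood in 0 of the 16 windows and in 9.63% of all windows, the E-box in 0 of the 16 and in 8.88%, and the cyclic AMP response element in 2 of the 16 and in 2.59%. The share of windows with an LC3 peak was 0.532% below 50% G and C and 3.14% at 70% and over, while the share with evDNA was 1.46% and 0.725%. The share with LC3 was thus highest and the share with evDNA lowest in the richest windows. The median G and C content of the 16 windows was close to that of the other LC3 windows. An evDNA peak lay over only 9 of the 16. Those 9 had a median G and C content of 66.7%, a GC box in 5 (55.6%, 21.2 to 86.3%) and the cyclic AMP response element in 0. G and C content can also change how well fragments are amplified and sequenced, and its part in these shares was not tested.

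Promoter and non-promoter LC3 peaks overlapped evDNA at shares that differed by less than their counting error. The share was 96 of 2226 promoter peaks (4.31%, 3.51 to 5.24%) and 249 of 5575 non-promoter peaks (4.47%, 3.94 to 5.04%), a difference of -0.154 percentage points (-1.16 to 0.849). With evDNA q of at most 0.05 the shares were 0.943% (0.585 to 1.44%) of promoter and 1.47% (1.17 to 1.82%) of non-promoter LC3 peaks, with intervals that overlap. Strong LC3 peaks did not share the pattern of all LC3 peaks and are described further on. Seen the other way, 27.8% of overlapping LC3 peaks and 28.6% of the other LC3 peaks were promoter peaks, against 28.5% of the whole LC3 list, a difference of -0.742 points (-5.58 to 4.1). With evDNA q of at most 0.05 that difference was -8.26 points (-16.1 to -0.41). At that limit the share of gene-free or high-background places, defined below, was 33.9 points (24.5 to 43.3) higher among overlapping than other LC3 peaks. No promoter difference without those places was computed at that limit. Among FOXM1 peaks, 307 of 11195 overlapped evDNA (2.74%), with 36 of 683 at promoters (5.27%, 3.72 to 7.22%) and 271 of 10512 elsewhere (2.58%, 2.28 to 2.90%). LC3 exceeded FOXM1 by 1.68 points (1.13 to 2.23) over all peaks. At promoters the order was the other way, 4.31% for LC3 and 5.27% for FOXM1, with intervals that overlap, while elsewhere it was 4.47% and 2.58%. Nor did LC3 exceed FOXM1 among strong peaks, those with q of at most 0.05 in both lists, met by 3.78% of LC3 and 1.97% of FOXM1 peaks. Of these, 19.7% of 295 LC3 peaks and 29.0% of 221 FOXM1 peaks overlapped, a difference of -9.3 points (-16.8 to -1.79). Outside gene-free places and those of high background, both defined below, 34 of 232 strong LC3 peaks overlapped (14.7%, 10.4 to 19.9%). For FOXM1 this was 15 of 112 (13.4%, 7.69 to 21.1%), so LC3 was again the higher there, with intervals that overlap. Filtering both lists was added after the data were seen. Filtering the LC3 list alone, as first laid down, sets strong LC3 peaks against all FOXM1 peaks and gave 16.9 points.

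The classes around genes differed more than the promoter split shows. The flank from 1 to 3 kb of a TSS had the highest share, 48 of 748 (6.42%, 4.77 to 8.42%), followed by intergenic peaks with 122 of 2282 (5.35%, 4.46 to 6.35%). First introns had the lowest, 15 of 734 (2.04%, 1.15 to 3.35%). Later introns stood at 56 of 1535 (3.65%, 2.77 to 4.71%), and exons, UTRs and downstream regions together at 8 of 276 (2.90%, 1.26 to 5.63%). The intervals of first introns and of the flank do not meet, while those of promoters, later introns and exons overlap each other. These shares include gene-free and high-background places, defined next, where 51 of 343 LC3 peaks overlapped (14.9%, 11.3 to 19.1%). Class shares without those places were not computed, and their part in the order of the classes was not tested.

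**Figure D1:**
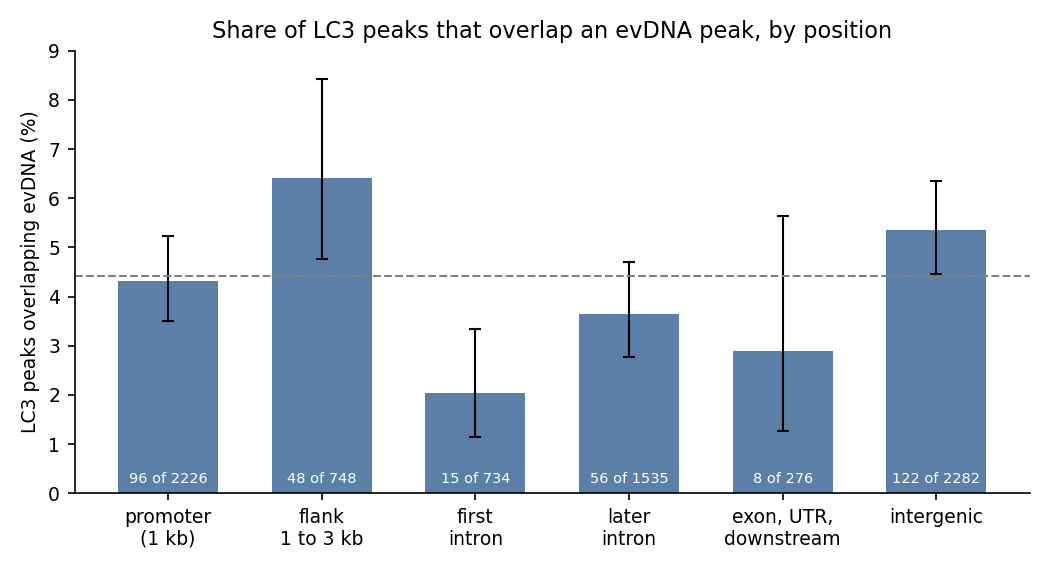
Share of LC3 peaks that overlap an evDNA peak in each annotation class, in percent, with exact 95% intervals as error bars and the counts inside the bars; the dashed line is the share of all LC3 peaks, 4.42%. The flank stands highest at 6.42% and first introns lowest at 2.04%.

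Places far from genes, or with many background fragments, made up a larger share of the overlapping peaks than of the others. Gene-free peaks lay over 500 kb from any protein-coding gene, on unplaced scaffolds or in the mitochondrial genome, and high-background peaks had a local background of 10 or more fragments. Together they made up 51 of 345 overlapping peaks (14.8%, 11.2 to 19.0%) and 292 of 7456 other peaks (3.92%, 3.49 to 4.38%), against 4.4% of all LC3 peaks. Of 32 high-background LC3 peaks, 27 overlapped evDNA (84.4%, 67.2 to 94.7%). They were mostly outside promoters: 45 of 249 overlapping non-promoter peaks and 6 of 96 overlapping promoter peaks were gene-free or high-background. Without them the share was 90 of 2216 (4.06%) at promoters and 204 of 5242 (3.89%) elsewhere. Gene families with copies were also counted. They held 22 of 65 LC3 peaks that overlapped both evDNA lists (33.85%, 22.57 to 46.65%). They held 20 of 280 that overlapped 1 list (7.14%, 4.42 to 10.8%) and 244 of 7456 that overlapped none (3.27%, 2.88 to 3.70%). The part of repeated DNA in the overlap was not tested.

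Only 1.88% of LC3 peaks overlapped an EBSS peak and 3.37% a control peak, from lists of 15402 and 28993 evDNA peaks, and the lists differ in length. Of the 345 overlapping peaks, 82 overlapped EBSS alone, 198 control alone and 65 both. Of the 65, 33 were gene-free or high-background. Promoter peaks had the same pattern, with 23 in EBSS alone, 58 in control alone and 15 in both, of which 6 were gene-free or high-background. At protein-coding genes the count in both was 2 of 57, GOLGA6A and TAF11L6, which belong to families of near-identical copies, so that reads may be shared between copies. From the side of the vesicles, 0.961% of EBSS peaks and 0.9% of control peaks overlapped an LC3 peak. At promoters this was 40 of 1446 EBSS peaks (2.77%, 1.98 to 3.75%) and 73 of 2691 control peaks (2.71%, 2.13 to 3.40%). Away from promoters it was 0.774% of 13956 EBSS peaks and 0.715% of 26302 control peaks.

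The fold over local background of overlapping and other LC3 peaks was nearly the same at the median. Overlapping promoter peaks had a median fold of 3.05, with a range of 1.41 to 5.48, and other promoter peaks one of 3.03, with a range of 1.91 to 6.49. Away from promoters the medians were 3.03 for overlapping and 3.00 for other peaks. Overlapping peaks were wider, with medians of 408.5 and 382 bp at promoters and 355 and 332 bp elsewhere for overlapping and other peaks. A wider peak meets the 1 bp rule more easily, and the part of the rule in this difference was not tested. Peaks were shallow, with a median pileup of 9 fragments in both promoter groups.

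Strong LC3 peaks, by q and not by fold, overlapped evDNA more often than weak ones. A low q did not go with a high fold throughout. Of the 65 LC3 peaks in both evDNA lists 49.2% had q of at most 0.05, and of the 280 in 1 list 9.29%. The median fold was 2.723 in the 65 and 3.045 in the 280, over a median background of 5.053 and 1.955 fragments. Of those with q of at most 0.05, 3.78% of the list, 58 of 295 overlapped evDNA (19.7%, 15.3 to 24.7%), against 287 of 7506 with q above 0.05 (3.82%, 3.40 to 4.28%). Here promoters and other places parted. The share was 12 of 122 strong promoter peaks (9.84%, 5.19 to 16.6%) and 46 of 173 strong non-promoter peaks (26.6%, 20.2 to 33.8%). Outside gene-free and high-background places it was 9 of 119 (7.56%, 3.52 to 13.9%) at promoters and 25 of 113 (22.1%, 14.9 to 30.9%) elsewhere. Leaving out those places does not remove genes with near-identical or tandem copies. The 25 include peaks at POTEG, GAGE1 and DEFB4B, described further on. No share without such genes was computed, and their part in this difference was not tested. At the top step, a −log10 q of 3 and over, 22 of 55 LC3 peaks overlapped (40.0%), and 16 of the 22 were gene-free or high-background.

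**Figure D2:**
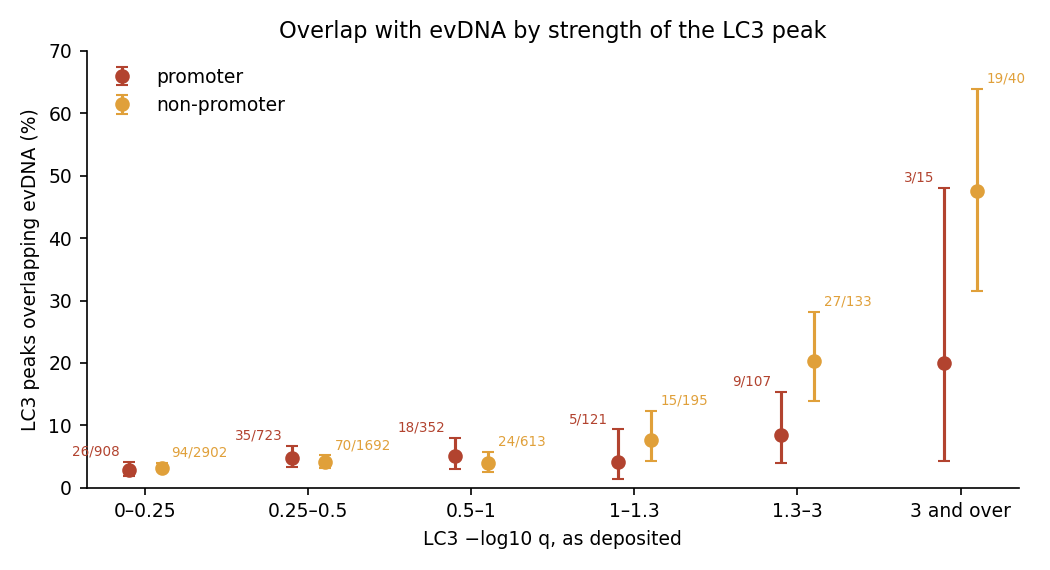
Share of LC3 peaks that overlap evDNA, in percent, by the peak's deposited −log10 q, for promoter and non-promoter peaks, with exact 95% intervals and the counts beside the points. The groups stand together in the lowest step, at 2.86% and 3.24%, and at 3 of 15 promoter and 19 of 40 non-promoter peaks in the highest.

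The 345 peaks formed 411 pairs with single evDNA peaks, 112 at promoters and 299 elsewhere. The median overlap was 265 bp in both groups, and the summits lay a median of 152.5 bp apart at promoters and 108 bp apart elsewhere. Most pairs joined peaks that were weak in both lists: in 76 promoter pairs (67.9%) and 170 non-promoter pairs (56.9%) neither peak had q of at most 0.05. Both peaks passed in 10 promoter pairs, of which 4 lay outside gene-free and high-background places, and in 58 non-promoter pairs, of which 19 did. The narrowest overlap was 2 bp, on chromosome 5 (LC3 peak 120112997 to 120113388, fold 3.41) with an EBSS peak. Next came 3 bp on chromosome 20 (from 19124790) and 8 bp on chromosome 7 (from 157916588). At promoters the narrowest was 9 bp, at the clone-named AC140113.1, but a control evDNA peak covered all 360 bp of that LC3 peak. The pair after it shared 11 bp, at the phospholipase gene DDHD1. The nearest miss was 3 bp, on chromosome 11 (83900548 to 83900856). Among promoters the nearest misses were 12 bp at PGM5, 13 bp at SLC25A21, 16 bp at ZFPM2, 17 bp at TLR2 and 0.037 kb at MAF. Peaks just inside and just outside the rule thus differed by a few bases.

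**Figure D3:**
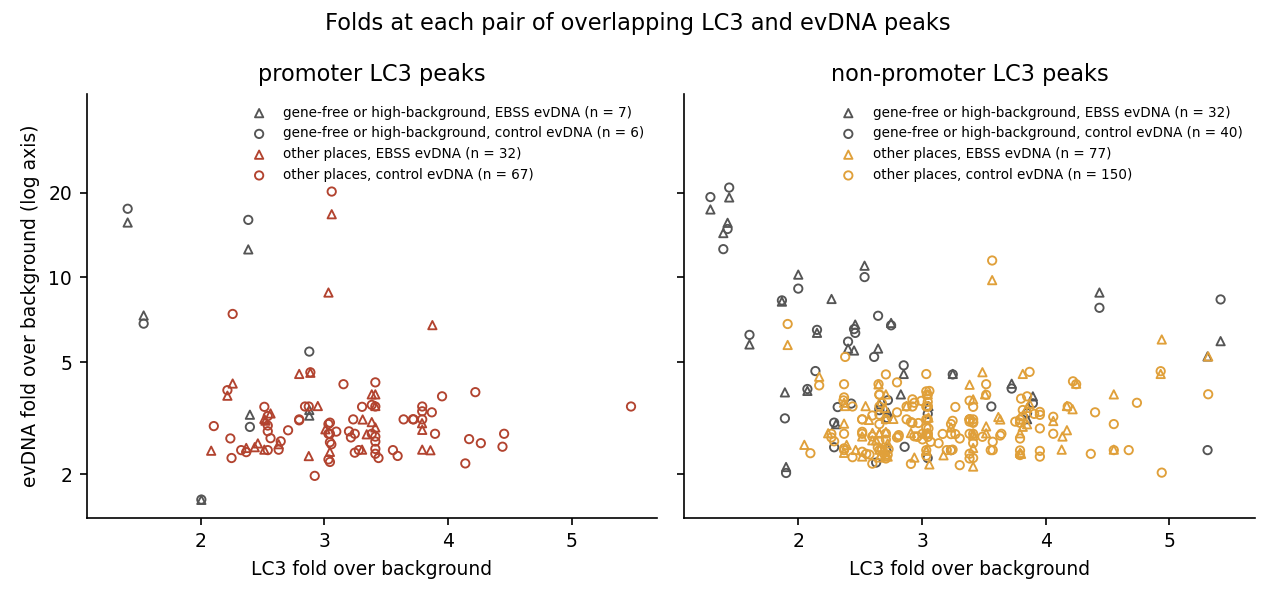
Fold over background of the LC3 peak (linear axis) against that of the evDNA peak (log axis) for each of the 411 overlapping pairs, promoter LC3 peaks on the left and non-promoter peaks on the right; triangles are EBSS and circles control evDNA, and grey marks gene-free or high-background places. Most points outside those places have evDNA folds between 2 and 5, and the evDNA folds over 10 are mainly grey.

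LC3 promoter peaks marked 1584 of 20052 protein-coding genes (7.9%), and overlapping ones marked 57 (0.284%). Few of the 57 rest on strong peaks: the count was 5 with LC3 q of at most 0.05 and 6 with evDNA q of at most 0.05. It was 15 with EBSS evDNA alone and 44 with control evDNA alone. Counting every class, 126 genes (0.628%) were assigned an overlapping LC3 peak. The nearest gene was protein-coding for 57 of 96 overlapping promoter peaks (59.4%, 48.9 to 69.3%) and for 1673 of 2130 other promoter peaks (78.5%, 76.7 to 80.3%). Away from promoters it was protein-coding for 28.9% of 249 overlapping and 41.2% of 5326 other peaks. The remainder were assigned to pseudogenes, clone-named transcripts and noncoding RNAs. The highest fold of all overlapping promoter peaks, 5.48 with a control evDNA fold of 3.48, was at one of these, AC239859.2 on chromosome 1. A shared gene was not usually a shared place: of 223 genes with a promoter peak in LC3 and in evDNA, 168 (75.3%) had no overlap between them.

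The 15 overlapping protein-coding promoters of highest LC3 fold had LC3 folds of 3.59 to 4.45, and 12 of them had a control evDNA peak. RIMS2, a scaffold protein of the zone where synaptic vesicles fuse, had an LC3 fold of 4.45 (chromosome 8, 104223072 to 104223907) and a control evDNA fold of 2.78. SV2C, a synaptic vesicle glycoprotein, had an LC3 fold of 4.27 and a control evDNA fold of 2.58, and its peak also overlapped a FOXM1 peak. CTTNBP2, a cortactin-binding protein of dendritic spines, had 3.59 in LC3 and 2.32 in control evDNA, with 25 bp shared. None of the 3 overlapped an EBSS peak, and each evDNA peak had a −log10 q below 0.5.

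Other members of the 15 encode regulators of RNA and signalling, or proteins of other kinds. CAPRIN1, an RNA-binding protein of stress granules, had an LC3 fold of 4.44 with a pileup of 14 fragments (chromosome 11, 34052829 to 34053201) and a control evDNA fold of 2.50 with 10 fragments. MEX3B, another RNA-binding protein, had 3.9 in LC3 and 2.78 in control evDNA. MAST4, a serine/threonine kinase, had 3.79 in LC3 and 3.35 in control evDNA (−log10 q 1.95). STRIP2, a member of a phosphatase and kinase complex, was one of the genes with EBSS evDNA alone, at 3.86 in LC3 and 2.43 in EBSS evDNA. TMEM233 was another, at 3.79 and 3.04. The histone H3 gene HIST2H3D had 3.79 in LC3 and 3.13 in control evDNA, but histone genes of this cluster have near-identical copies, so reads may be shared. FAM174A completed the upper group at 3.72 in LC3 and 3.13 in control evDNA.

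PZP, RNF180, SPX and IFI16 complete the 15 apart from FOXM1. PZP, a protease inhibitor of the alpha-2-macroglobulin family, had a fold of 4.22 in LC3 (chromosome 12, 9170524 to 9170908) and 3.91 in control evDNA, and both peaks had 11 fragments and q of at most 0.05. RNF180 had 3.95 in LC3 (chromosome 5, 64165619 to 64166391) and 3.78 in control evDNA, and the evDNA peak lay wholly inside the LC3 peak. SPX had 4.17 in LC3 (chromosome 12, 21527287 to 21527761) and 2.67 in control evDNA, with 75 bp shared, most of them in the printed bases. MFAP3, with weaker peaks, had 3.03 in LC3 (chromosome 5, 154038355 to 154039025) and 2.78 in control evDNA, with 7 fragments each. IFI16, a sensor of cytosolic and nuclear DNA, had 3.79 in LC3 (chromosome 1, 159005708 to 159006243) and 3.48 in control evDNA.

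FOXM1 and PGK1 had the highest EBSS evDNA folds of the 57 overlapping protein-coding promoters, and no control evDNA peak overlapped either. FOXM1, the transcription factor after which the series is titled, had an LC3 fold of 3.87 with 16 fragments (chromosome 12, 2873983 to 2874363) and an EBSS evDNA fold of 6.77 with 51 fragments. A second LC3 peak in the FOXM1 gene (2858650 to 2859580), assigned by the authors to the neighbouring ITFG2, had a fold of 4.94 and was the highest of the overlapping non-promoter peaks at a protein-coding gene. It overlapped an EBSS peak of fold 6.02 with 70 fragments and a control peak of fold 2.03 with 13 fragments. PGK1 had an LC3 fold of 3.03 with 7 fragments (X chromosome, 78103788 to 78104112) and an EBSS evDNA fold of 8.84 with 34 fragments. All 3 of these LC3 peaks also overlapped a FOXM1 peak.

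The other 9 leading non-promoter peaks at protein-coding genes had LC3 folds of 3.81 to 4.74. POTEG, of a primate gene family with many near-identical copies, had 4.74 in LC3 (chromosome 14, 19436214 to 19436576) and 3.59 in control evDNA. DNAH14, a dynein heavy chain, had 4.18 in LC3 and 3.48 in control evDNA. Intron peaks lay in MMEL1, an endopeptidase gene (4.17 in LC3, 3.49 in EBSS evDNA), in HYDIN, a gene of motile cilia with a near-identical partial copy (4.17 and 2.87 in EBSS evDNA), and in DESI2, a deSUMOylase gene (3.95 and 3.25 in control evDNA). WASHC2A, a subunit of an actin-nucleating complex on endosomes, had 4.06 in LC3, 3.09 in EBSS evDNA and 3.20 in control evDNA. CTAGE8 had 4.06 in LC3 and 2.78 in control evDNA. PIWIL2, of the piRNA pathway, had 3.85 in LC3 and 3.01 in EBSS evDNA. The beta-defensin gene DEFB4B, which has a near-identical copy DEFB4A, had 3.81 and 4.54 in EBSS evDNA. WASHC2A also has near-identical relatives, and values at such genes are uncertain.

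The 10 LC3 peaks with the highest lowest fold over the LC3 and both evDNA lists had LC3 folds of 3.57 to 5.41. On the scaffold KI270733.1 (129968 to 130304), beside the ribosomal RNA gene RNA5-8SN2, the folds were 5.41 in LC3, 5.94 in EBSS evDNA and 8.35 in control evDNA. Beside DNM1P47, a dynamin pseudogene on chromosome 15, they were 4.93, 4.54 and 4.64. Near DUX4L20 on chromosome 10 (133688254 to 133688596), of the D4Z4 repeat, they were 4.43, 8.84 and 7.80 over a background of 21.1 fragments in LC3, and this LC3 peak had the highest −log10 q of the overlapping peaks, 25.6. LINC01297 had 5.31, 5.24 and 3.85 on chromosome 14, and a second place of that name on chromosome 22 had 3.85, 3.44 and 3.78. GAGE1, a cancer-testis antigen gene in a tandem array on the X chromosome, had 3.57 in LC3, 9.78 in EBSS evDNA and 11.5 in control evDNA. The rest of the 10 lay near AC084121.12 and AC084121.13 on chromosome 8, RF00002 on chromosome 22 and IGKV1OR2-3 on chromosome 2, with LC3 folds of 3.72 to 4.25. Of the leading gene-free or high-background peaks, GL000220.1 (53312 to 53640) had 5.31 in LC3, 5.24 in EBSS evDNA and 2.44 in control evDNA, and FRG1GP on chromosome 22 had 3.85, 3.14 and 3.30.

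The strongest LC3 promoters that evDNA did not overlap had higher folds than any overlapping protein-coding promoter. They are the top of 2130 promoter peaks, against 96 overlapping ones, and the median folds of the groups were 3.03 and 3.05. The overlapping AC239859.2, which is not protein-coding, reached 5.48. VIM, which encodes vimentin, had the highest promoter fold, 6.49 (chromosome 10, 17226772 to 17228339), and its nearest evDNA peak was 32.8 kb away. The VIM peak also overlapped a FOXM1 peak. PIAS1, a SUMO ligase (5.52), RAPGEF4, a cyclic AMP-regulated exchange factor (5.46), UBN2, a histone chaperone subunit (5.45), and TESC, a calcium-binding protein (5.31), lay 5.35, 27.4, 29.1 and 4.2 kb from evDNA. SDC2, a syndecan that takes part in forming exosomes, had a fold of 5.19 and lay 12 kb from evDNA. ATP5F1C, the gamma subunit of ATP synthase (5.17), lay 62.4 kb away, FAM181B (5.03) 17.8 kb, the phosphodiesterase gene PDE3B (4.93) 97.9 kb and the atypical kinase gene MAPK4 (4.93) 9.01 kb. The LC3 gene family gave no overlap with evDNA. The highest LC3 fold of the whole list, 10.0 with a −log10 q of 25, was at MAP1LC3B2 (chromosome 12, 116575825 to 116576390). This peak lay 38.1 kb from the nearest evDNA peak. The authors assigned it to AC125603.4, and it also overlapped a FOXM1 peak, so it was not particular to the LC3 list. MAP1LC3A, MAP1LC3B and MAP1LC3C had no LC3 peak.

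Across 11 gene lists with 213 members, 20 members had an LC3 promoter peak and 3 had an overlapping one, IFI16, FOXM1 and PGK1, against 7.9% and 0.284% of all protein-coding genes. These counts go by the 1 gene that the authors assigned to each peak. Of 32 core autophagy genes, 1 had an LC3 promoter peak, RB1CC1, which encodes a subunit of the kinase complex that starts autophagosome formation, 63.2 kb from evDNA. Of 16 autophagy receptor genes, BNIP3 (fold 3.26, 94.7 kb from evDNA) and SEC62 (4.57, 34.6 kb) had one. Of 25 vesicle biogenesis genes, CHMP6, a subunit of the ESCRT membrane-scission machinery (3.9, 4.79 kb), SDC2 and RAB27A, a GTPase of exosome release (2.71, 138 kb), had one. Of 19 lysosomal genes CTSB and GAA, of 16 nuclear lamina and envelope genes LEMD2 and TMPO, and of 13 DNA-sensing genes SAMHD1 had promoter peaks without overlap. FOXM1 was the only one of 28 G2/M genes with an LC3 promoter peak. Of 20 housekeeping genes, 5 had an LC3 promoter peak, and PGK1 alone of them overlapped evDNA. None of the 12 replication-dependent histone genes of the list had one, and of 14 long genes at fragile sites LSAMP did, as did EPCAM of the 18 lung epithelial genes. An LC3 peak in an intron of MACROD2, a fragile-site gene, overlapped evDNA at a fold of 2.71 but was assigned by the authors to another gene. LC3 peaks classed as promoter also lay at ATG3 (2.96), TAX1BP1 (3.41), SDC4 (3.03), WWOX (2.71) and MACROD2 (3.44). They were assigned to other genes, so they are not in the counts above, and none of them overlapped evDNA.

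LC3 peaks that did not overlap evDNA lay at a wide range of distances from it. The median distance to the nearest evDNA peak was 27.6 kb (quartiles 10.6 and 58.1 kb) for promoter peaks and 24.4 kb (9.16 and 55.4 kb) for non-promoter peaks. An evDNA peak lay within 1 kb of 4.37% of 2130 promoter peaks and of 4.26% of 5326 non-promoter peaks, and within 10 kb of 23.8% (22.1 to 25.7%) and 26.8% (25.6 to 28.0%). The FOXM1 medians were 23.7 kb at promoters and 25.9 kb elsewhere. These distances depend on how many evDNA peaks were called.

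**Figure D4:**
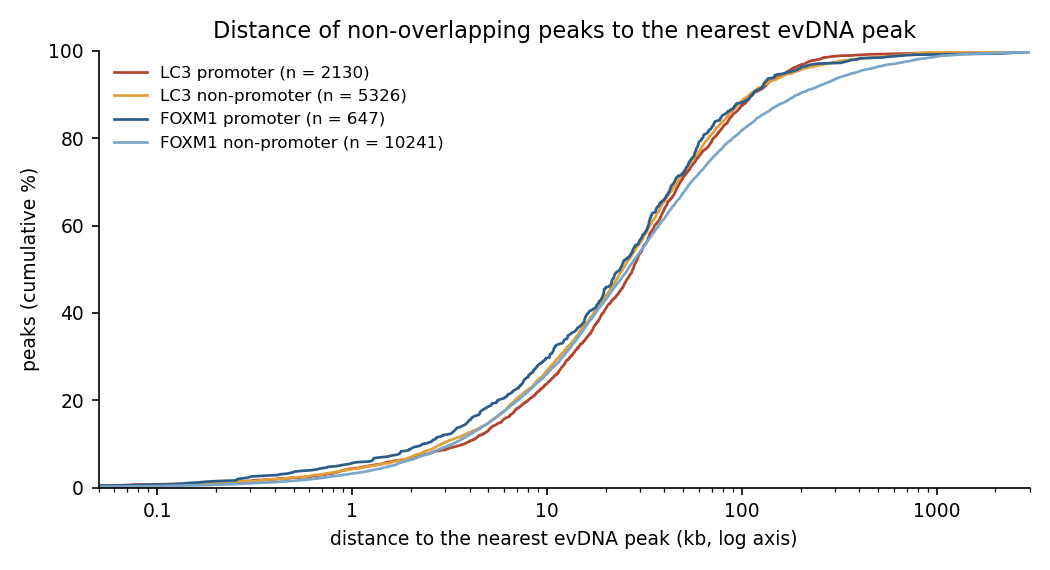
Cumulative share, in percent, of LC3 and FOXM1 peaks that overlap no evDNA peak, by distance to the nearest evDNA peak in kb on a log axis. The LC3 curves reach 50% at 27.6 kb for promoter peaks and 24.4 kb for non-promoter peaks, and the FOXM1 non-promoter curve falls below the others beyond 50 kb.

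Counted around LC3 summits outside gene-free and high-background places, evDNA peaks were concentrated within the first kilobase. Around promoter LC3 summits, EBSS evDNA summits stood at 16.2 per Mb (11.4 to 22.5) within 0.5 kb, against 5.95 per Mb at 50 to 100 kb, a ratio of 2.72. Control evDNA summits stood at 32.9 (25.8 to 41.4) and 10.3 per Mb, a ratio of 3.19. Around non-promoter LC3 summits the same ratios were 2.85 for EBSS and 2.71 for control evDNA. FOXM1 promoter summits had ratios of 4.02 for EBSS and 3.14 for control evDNA, and FOXM1 non-promoter summits had 1.59 and 1.45. From 1 to 2 kb the LC3 ratios were between 0.901 and 1.36. Around LC3 promoters, control evDNA dipped at 2 to 5 kb to 7.37 per Mb (5.98 to 8.98), below its level at 50 to 100 kb, and EBSS evDNA was at 4.81 (3.71 to 6.15) there.

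**Figure D5:**
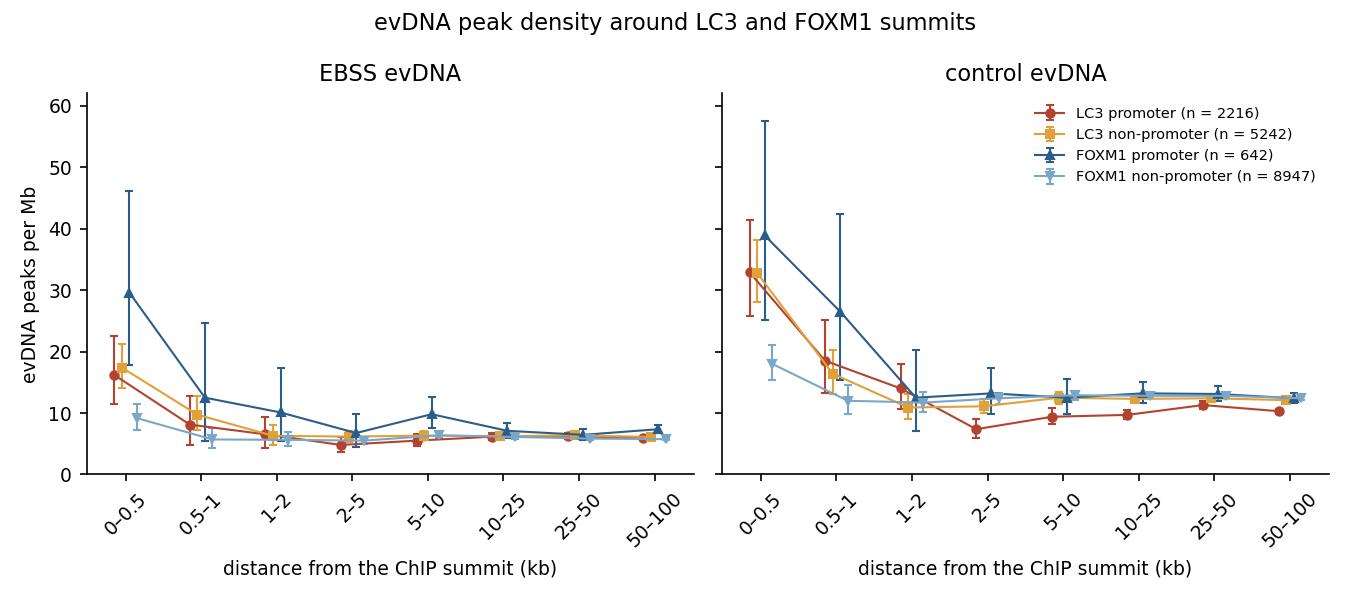
Number of evDNA peak summits per Mb by distance from the LC3 or FOXM1 summit in kb, for EBSS evDNA on the left and control evDNA on the right, outside gene-free and high-background places, with exact Poisson 95% intervals as error bars. Every curve is highest within 0.5 kb; LC3 promoters stand at 16.2 per Mb in EBSS and 32.9 per Mb in control evDNA there.

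Overlapping LC3 peaks were also more often FOXM1 peaks, against 2.01% of all LC3 peaks. A FOXM1 peak overlapped 36 of 345 (10.4%, 7.42 to 14.2%) and 121 of 7456 other LC3 peaks (1.62%, 1.35 to 1.94%). Of the 36, 21 were gene-free or high-background. At promoters the counts were 10 of 96 overlapping (10.4%) and 18 of 2130 other peaks (0.845%), and away from them 26 of 249 (10.4%) and 103 of 5326 (1.93%).

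The overlapping peaks lay on most chromosomes. Chromosome 5 had the most, 45 of 656 LC3 peaks (6.86%, 5.05 to 9.07%), and held 13.0% of the overlapping LC3 peaks, 8.19% of the other LC3 peaks and 13.8% of evDNA peaks. Chromosome 22 had 7 of 66 (10.6%, 4.37 to 20.6%) and chromosome 10 had 13 of 559 (2.33%, 1.24 to 3.94%). On chromosome 13, 0 of 35 LC3 peaks overlapped, which allows a share of up to 10.0% by the exact interval.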

How the data were processed

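The data were 4 peak lists on hg38 from A549 cells (LC3, FOXM1, EBSS evDNA and control evDNA), 1 library each. The submitters' processing notes name MACS3 3.0.0a6, ChIPseeker, BWA, FastQC 0.11.8 and fastp 0.20.0. The control given to the peak caller and the read totals are not given in the sources used here. Per the file headers, the authors deposited a −log10 p-value, a −log10 q-value, a score (not used) and a fold over local background (a linear ratio) for every peak. Such values of the authors serve here only for description, ranking and filtering, mostly inside 1 list. Across lists, they give the lowest fold over the LC3 and both evDNA lists, and the same q limit in LC3 and FOXM1. The median pileup was 8 fragments in LC3 and 5 in FOXM1, so an equal q limit need not be an equal cut. Headings of the p and q columns are unreadable in the EBSS list, where position identified them. No listed peak has a −log10 p below 2.30, and most have q above 0.05.

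Peaks with the same interval were merged (7834 deposited LC3 peaks gave 7801). Fragment number and local background at a summit were solved from the fold and the Poisson −log10 p, with a tolerance of 0.01; this failed for 0 LC3, 3 FOXM1, 2 EBSS and 1 control peak. Shares have exact Clopper-Pearson 95% intervals and differences normal ones, covering counting error only; no test was made. Genes and sequences came from RefSeq tables (GRCh38.p14), and 72.8% of the gene names in the LC3 list matched. Scripts were tested on simulated data (Python 3.11.15, pandas 2.3.3, scipy 1.17.1).

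Genes were named by rule: by highest LC3 fold, the 15 overlapping promoter genes, the 10 overlapping non-promoter genes, the 5 gene-free or high-background peaks and the 10 non-overlapping promoter genes; the 10 peaks in both evDNA lists with the highest lowest fold; the 5 non-overlapping promoters nearest to evDNA; members of the 11 gene lists with an overlapping peak; and FOXM1 and the LC3 genes. AC239859.2, AC140113.1, GOLGA6A, TAF11L6, DDHD1, MACROD2, MFAP3, FAM114A2 and the list members without overlap were named after their values were seen. The members and lists were chosen with earlier results of these data known.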

Additional observations from a re-analysis of the deposited data

How the results depend on the processing

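No paired analysis was possible because each group had 1 library. Of 65 alternative values of 9 results, 26 stayed within the main interval or within 1.5 times the main count, 38 moved and 1 reversed; the cause was not tested unless named. Values follow for the overlap share of all, promoter and non-promoter LC3 peaks, in percent. Requiring an overlap of at least 50% of the shorter peak, they were 3.29, 3.14 and 3.35, with a gene-free or high-background difference of 14.8 points. With LC3 q of at most 0.05 they were 19.7, 9.84 and 26.6; the promoter difference was -25.7 points, the gene-free or high-background difference 24.9, the median distance 29.1 kb, LC3 minus FOXM1 16.9 points, and 5 genes were left. With evDNA q of at most 0.05 they were 1.32, 0.943 and 1.47; the promoter difference was -8.26 (-16.1 to -0.41), the gene-free or high-background difference 33.9, the share within 10 kb 3.9%, the median distance 321 kb, LC3 minus FOXM1 0.4, and 6 genes were left. With EBSS evDNA alone they were 1.88, 1.71 and 1.96, with 21.9 points, 11.1% within 10 kb, 66.9 kb, 0.518 points and 15 genes. With control evDNA alone they were 3.37, 3.28 and 3.41, with 18.9% within 10 kb and 37.3 kb. Without gene-free and high-background LC3 peaks the share was 3.94% of all and 3.89% of non-promoter peaks. Leaving out gene-free peaks and those of 4 or more background fragments, chosen after seeing the data, gave 3.65% and 3.64%. LC3 minus FOXM1 reversed to -9.3 points with q of at most 0.05 in both lists, also chosen after seeing the data; outside gene-free and high-background places the strict shares were 14.7% of 232 LC3 and 13.4% of 112 FOXM1 peaks. With few fragments a peak, shares of weak peaks depend on depth, which is unknown.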
